A study of Homo sapiens with 2 samples.

Results

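The 9 human plexin genes, the receptors through which semaphorins signal, were examined for binding of the transcription factor OTX2 in medulloblastoma tumorspheres. They were chosen as the members of 1 receptor family and are 9 of the 19881 protein-coding genes with a GRCh38 position in GENCODE. Class A holds PLXNA1, PLXNA2, PLXNA3 and PLXNA4, class B holds PLXNB1, PLXNB2 and PLXNB3, and classes C and D hold PLXNC1 and PLXND1. Each gene record was extended by 50 kb on each side, and 116 of the 137412 OTX2 peaks of the deposited list overlapped these 9 windows. No peak was shared between windows.

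Chromatin came from D283, an established medulloblastoma cell line, grown as floating tumorspheres in neural medium with epidermal growth factor and basic fibroblast growth factor. The cells had no treatment and were the OTX2-expressing control state, which is labelled OTX2+. There was 1 library precipitated with an anti-OTX2 antibody (ChIP) and 1 input library of unprecipitated chromatin, with 61259377 and 22521186 fragments after duplicate removal. With 1 library of each kind there is no replicate error and no test between conditions. Poisson intervals cover counting error only, and all intervals describe these libraries. ChIP gives no expression level, so neither the identity of the cells nor the amount of any plexin was checked here. In a pool of cells, binding in fewer cells and weaker binding in each cell cannot be told apart.

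Plexins are single-pass membrane receptors whose outer sema domain binds semaphorins and whose inner part holds a GTPase-activating domain for small GTPases of the Ras and Rap type. Class A plexins usually receive secreted class 3 semaphorins together with the neuropilins NRP1 and NRP2, or bind class 6 semaphorins directly. Class B plexins bind class 4 semaphorins such as SEMA4D, PLXNC1 is the receptor of SEMA7A, and PLXND1 receives SEMA3E in growing vessels. In the developing cerebellum, PLXNA2 with its ligand SEMA6A takes part in the migration of granule cells, the lineage of some medulloblastomas.

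A peak was called a TSS peak when it overlapped a region around the 5′ end of the gene record, reaching 5 kb upstream and 2 kb downstream, a gene-body peak when it overlapped the rest of the record, and a distal peak when it lay in the 50 kb flanks beyond these. Its height is given as the number of fragments over the summit. Its fold enrichment is the deposited ratio of the pileup, the height scaled to the depth of the input, to the local input. A pseudocount is added to both, so fragments divided by local input do not give this ratio. OTX2 peaks at the plexin genes lay mostly inside introns, a count not set against the share of these genes that is intron. PLXNA2 carried 51 of the peaks where the other 8 genes had 65 together. Of the 116 peaks, 51 (43.97%) were at PLXNA2, 24 at PLXNA4, 17 at PLXNC1, 9 at PLXND1, 6 each at PLXNA1 and PLXNB1 and 3 at PLXNB2. PLXNA3 and PLXNB3 had no peak. The map of the 9 genes shows every peak at its distance from the TSS.

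**Figure D1:**
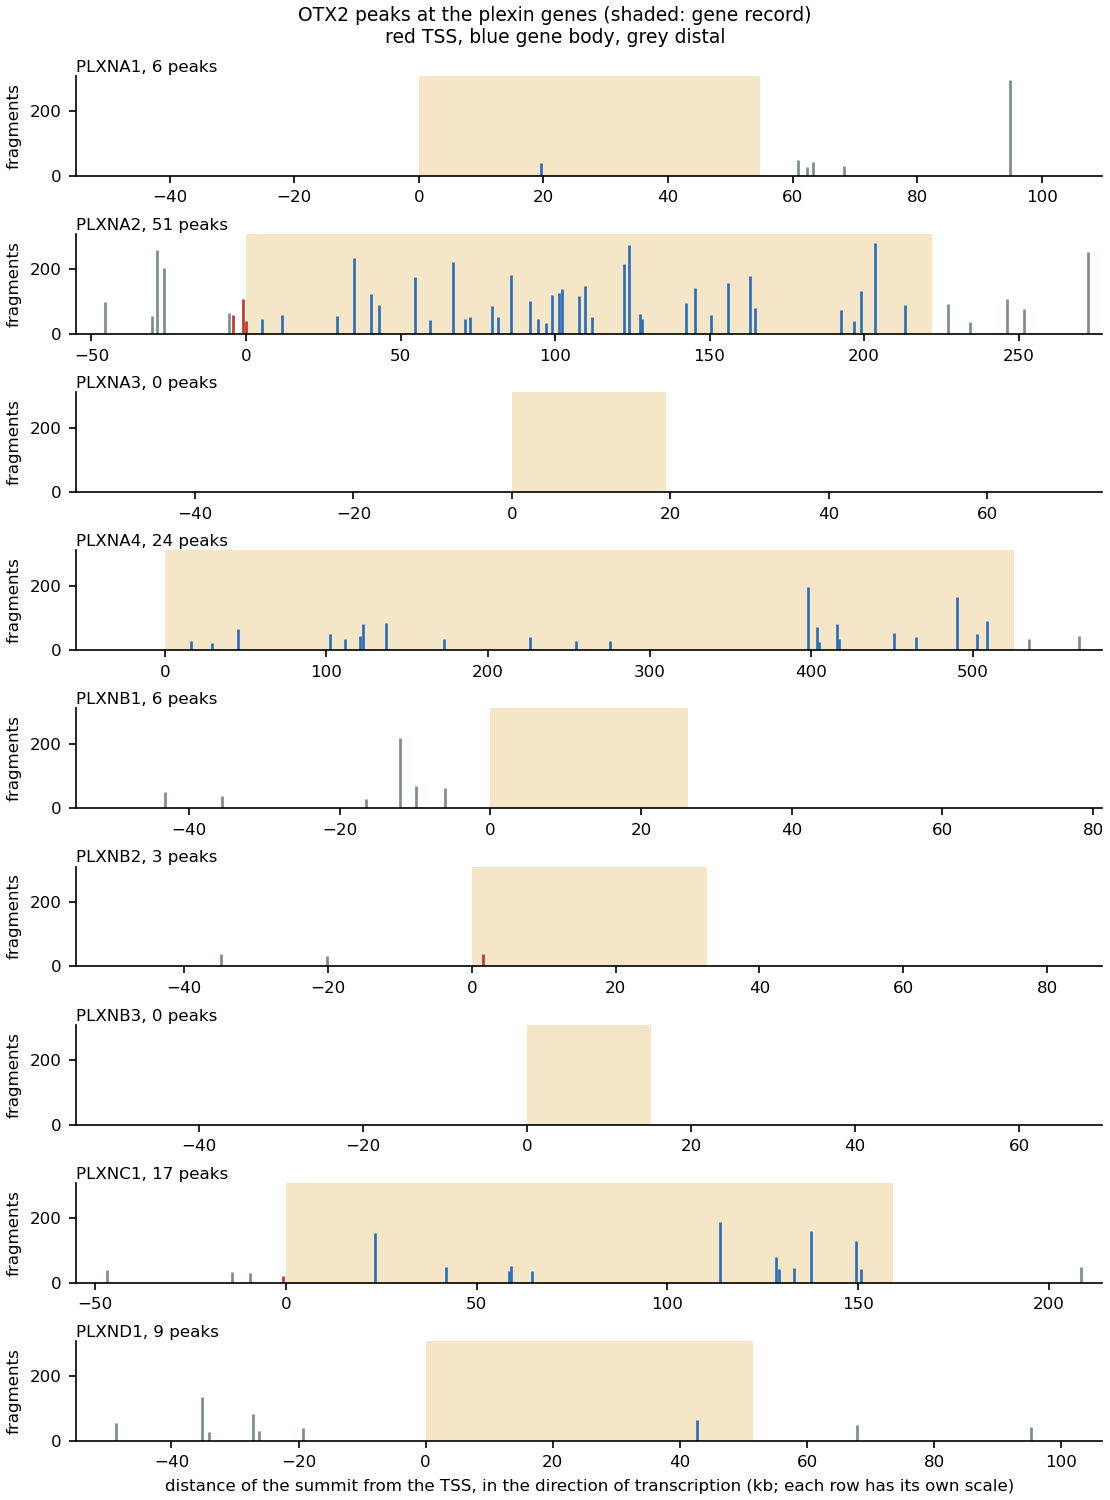
Each row is 1 plexin gene, with the distance of each peak summit from the TSS in kb on the x axis (in the direction of transcription, each row on its own scale) and the fragments over the summit on the y axis. Shading marks the gene record, and red, blue and grey lines are TSS, gene-body and distal peaks; PLXNA2 holds 51 lines, and PLXNA3 and PLXNB3 hold none.

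TSS peaks were present at 3 of the 9 genes, PLXNA2, PLXNB2 and PLXNC1, against 57.2% of all protein-coding genes. Gene-body peaks were present at 5 of 9, against 54.3%, and distal peaks at 7 of 9, against 91.1%. No peak in the window at all was found for 2 of 9, against 5.91%. Both of these genes lie on chromosome X, where the density of peaks was 2 per 100 kb and 18.7% of 841 protein-coding genes had no peak in their window. With 9 genes, a share of 3 of 9 is a description of these genes and carries no test.

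By position, 5 of the 116 plexin peaks (4.31%) were TSS peaks, 74 (63.8%) gene-body peaks and 37 (31.9%) distal peaks. In the whole list, 11% of peaks were at a TSS, 46.8% in a gene body, 16.2% in the flanks and 25.9% farther from any protein-coding gene. The plexin shares cannot be read against these directly, because the plexin windows hold no peak farther away and long genes hold more body. All 71 gene-body peaks whose summits lay in the canonical transcript were in an intron and 0 in an exon, and the other 3 lay in PLXNA4 upstream of its canonical start. The share of gene-body length that is intron was not computed, so these counts show no preference for introns. Of the 74, 7 were in a first intron, 2 in that of PLXNA2 (25.6 kb) and 5 in that of PLXNA4 (67.6 kb). The plexin gene bodies span 1088.3 kb together, and the number that length alone would give was not computed.

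**Figure D2:**
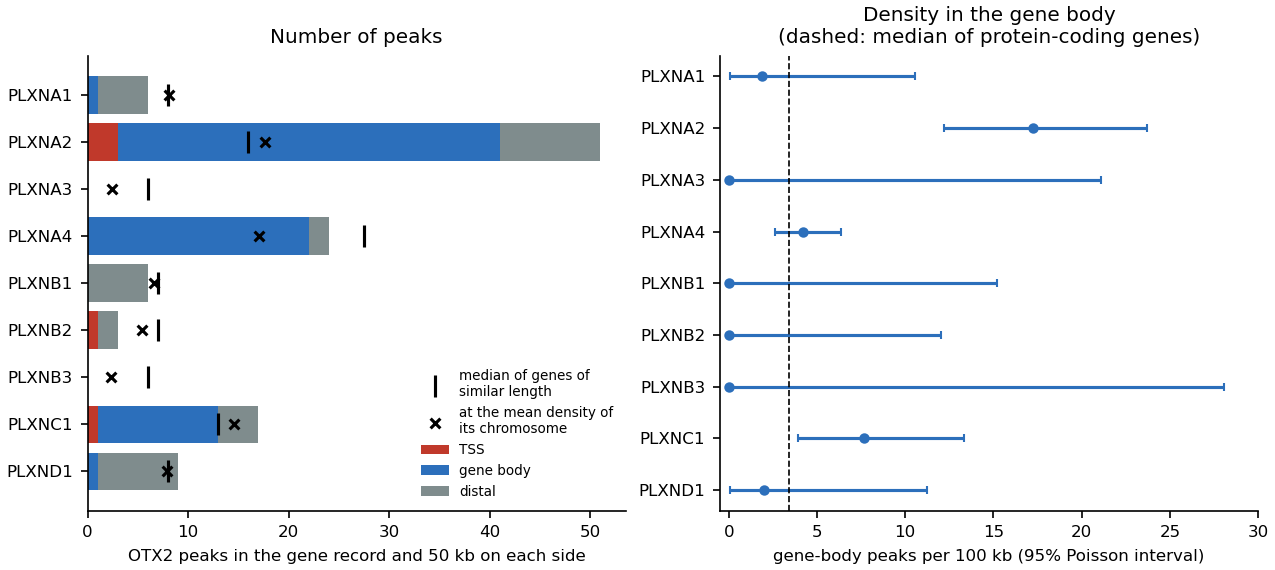
Left, the number of OTX2 peaks in each plexin window on the x axis, stacked by position, with a bar mark for the median of protein-coding genes of similar length and a cross for the number at the mean density of the chromosome. Right, gene-body peaks per 100 kb with 95% Poisson intervals (counting error only) against a dashed line at the median of protein-coding genes, 3.40; PLXNA2 is at 17.3 with an interval from 12.2 to 23.7.

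PLXNA2 (ENSG00000076356, chr1:208022242-208244384, minus strand, 222.1 kb) had 3 TSS, 38 gene-body and 10 distal peaks. Its gene body held 17.3 peaks per 100 kb (95% Poisson interval 12.2 to 23.7), against a median of 3.40 over the 16156 protein-coding genes with at least 5 kb of gene body, 607 of which were at least as dense. Among the 2806 protein-coding genes of similar length, within a factor of 2, the median number of peaks in the window was 16, and 98.4% had fewer than PLXNA2. Over the whole genome, 182 protein-coding genes had at least 51 peaks in their windows. The number at PLXNA2 was thus in the upper tail for its length but not the extreme.

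The region around PLXNA2 was itself rich in peaks. Within 5 Mb of the gene the density was 7.88 peaks per 100 kb, against 5.49 on chromosome 1 as a whole, and the PLXNA2 window was 2.01 times as dense as that neighbourhood. Of the 108 other protein-coding genes within 5 Mb, none had as many peaks as PLXNA2 and the highest number was 44, but 9 had at least its density per length. The input was also deeper there. The median local input was 7 at the PLXNA2 peaks and 7.01 at the peaks within 5 Mb. The most frequent local input of the whole list, 3.99, was taken as the lowest possible value. No PLXNA2 peak was within 1% of that lowest value. Input depth is part of fold enrichment, and its part in the number of peaks was not tested.

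At the PLXNA2 start, 3 peaks stood side by side. The peak over the start itself had its summit 6 bp downstream, in the untranslated part of exon 1, and was low, with 40 fragments and 4.03-fold enrichment. The highest TSS peak lay 994 bp upstream (chr1:208244925-208245653), with 109 fragments (95% Poisson interval 89.5 to 131.5), 13.1-fold enrichment and −log10 q of 62.3. The other stood 4262 bp upstream, with 58 fragments and 6.24-fold enrichment. The summits of both upstream peaks lay in a noncoding gene record, ENSG00000286198, and could be counted for either gene.

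The promoter of PLXNA2 is shown because it is covered from end to end by the peak over the start, and the promoter of PLXNA4, the other long class A gene, for contrast, since no peak covers it. Both are RefSeq windows in GRCh38.p14 from 250 bases before to 50 bases after the start, printed 5′ to 3′ in the direction of the gene, with every TAAT on either strand (read as TAAT or ATTA) in capitals. TAAT is the core that OTX2 and other homeodomain proteins share. The positions are chr1:208244335-208244634, minus strand, for PLXNA2 and chr7:132576421-132576720, minus strand, for PLXNA4.
PLXNA2 promoter: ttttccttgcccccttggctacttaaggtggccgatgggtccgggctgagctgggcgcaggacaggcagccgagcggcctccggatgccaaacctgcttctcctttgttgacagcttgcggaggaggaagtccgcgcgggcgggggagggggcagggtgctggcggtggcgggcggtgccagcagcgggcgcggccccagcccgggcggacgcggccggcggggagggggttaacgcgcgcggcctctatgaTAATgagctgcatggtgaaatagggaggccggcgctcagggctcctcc
PLXNA4 promoter: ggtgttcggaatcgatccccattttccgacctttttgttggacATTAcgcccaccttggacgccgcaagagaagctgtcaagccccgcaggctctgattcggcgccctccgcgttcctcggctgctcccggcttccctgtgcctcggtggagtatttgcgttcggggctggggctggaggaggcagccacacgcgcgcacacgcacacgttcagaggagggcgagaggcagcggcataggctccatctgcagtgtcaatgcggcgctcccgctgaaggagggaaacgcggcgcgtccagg

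Each of these promoters held 1 TAAT, and neither held TAATCC or TAATCT, the 6-letter sites known for OTX2, on either strand. The PLXNA2 window had a GC content of 70.3% and the PLXNA4 window 64.3%, against a median of 58.7% over 35116 promoter windows. These letters say nothing of sites outside the window.

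Inside PLXNA2, introns 3 and 4 held most of the gene-body peaks, though an even spread over the introns was not tested. Intron 3 (67.8 kb) held 16 peaks and intron 4 (39.1 kb) held 8, so that these introns had 24 of the 38 gene-body peaks (63.2%) on 48.1% of the gene length. The first intron (25.6 kb) held 2. Per 100 kb, these were 23.6 peaks in intron 3, 20.5 in intron 4 and 7.80 in the first. Some shorter introns were denser on few peaks, such as intron 5 (47.9) and intron 11 (67.5) with 2 peaks each. The highest gene-body peak by fold enrichment was in intron 4, 124.0 kb downstream of the TSS (chr1:208119821-208121269), with 275 fragments (95% Poisson interval 243.5 to 309.5), 27.8-fold enrichment and −log10 q of 217.9. It ranked above 97.8% of all peaks by fold enrichment. Within 2 kb of it, on the side of the TSS, stood a second peak of the same intron, with 218 fragments and 19.5-fold enrichment. The tallest peak, with 281 fragments and 20.5-fold enrichment, was much nearer the 3′ end, in intron 22 (chr1:208040558-208041742).

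The flanks of PLXNA2 carried 5 peaks upstream and 5 downstream, and some were as high as those inside it. The highest distal peak by fold enrichment lay 272.6 kb downstream of the TSS, past the 3′ end (chr1:207971098-207972400), with 254 fragments, 27.5-fold enrichment and −log10 q of 200.6. Upstream, 28.7 kb from the TSS, a broad peak of 1575 bp (chr1:208272364-208273938) had 262 fragments and 24.5-fold enrichment, and a neighbour 26.6 kb from the TSS had 204 fragments at 12.6-fold enrichment. None of the 10 distal peaks overlapped the record or the TSS window of another protein-coding gene.

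PLXNA2 peaks were taller than those of the other plexins as well as more frequent. Their median was 94 fragments (range 33 to 281), against 53 over all peaks, 60.0 over the peaks within 5 Mb and 44 over the 65 peaks of the other plexins. There were 8 PLXNA2 peaks of at least 200 fragments and 2 at the other 8 genes, with 6.45% of all peaks at that height. Enrichment of at least 10-fold was reached by 22 of the 51 PLXNA2 peaks and by 16 of the 65 others (24.6%), against 26.3% of all peaks. The other plexins were therefore near the share of the whole list. The heights of all 116 peaks are shown gene by gene in the plot of fragments.

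**Figure D3:**
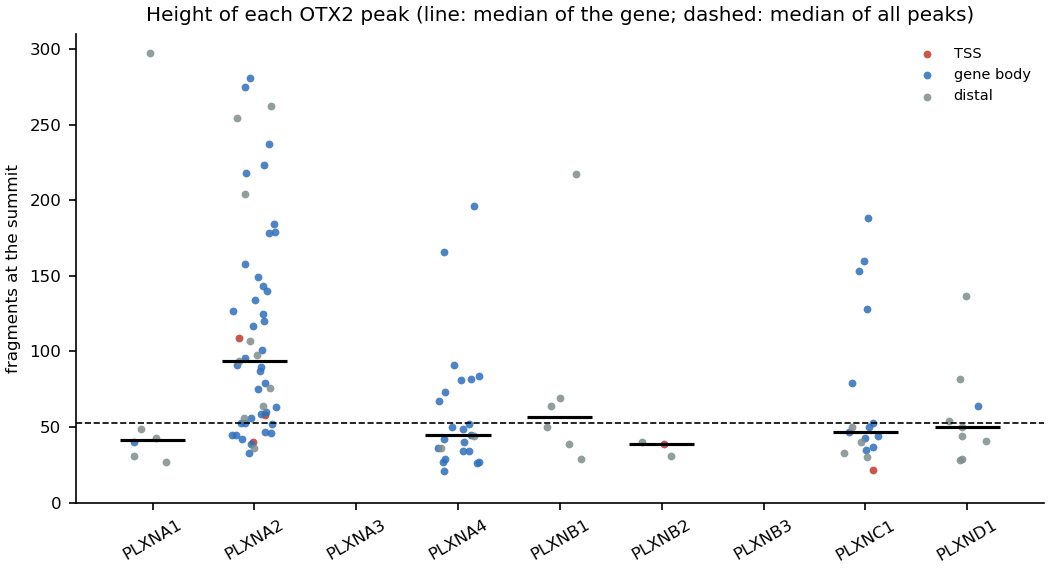
Each point is 1 OTX2 peak, with the plexin gene on the x axis and the fragments over the summit on the y axis, in red for TSS, blue for gene-body and grey for distal peaks. Short lines are the median of each gene and the dashed line is the median of all peaks, 53 fragments; the PLXNA2 median is 94, and PLXNA1 and PLXNB1 each have 1 distal peak far above their others.

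PLXNA4 (ENSG00000221866, chr7:132123340-132648688, minus strand) is the longest plexin gene, at 525.3 kb, and its pattern differed from that of PLXNA2 in density, height and place. It had 22 gene-body peaks, 2 distal peaks downstream and none at the TSS. Its gene body held 4.20 peaks per 100 kb (95% Poisson interval 2.63 to 6.36), an interval that does not overlap that of PLXNA2. Its window held 24 peaks where the median of 946 protein-coding genes of similar length was 27.5. Chromosome 7 was sparse, with 2.73 peaks per 100 kb, and the density in the PLXNA4 window was 1.41 times that of the chromosome and 1.01 times that of the 5 Mb around it. PLXNA4 thus held about the number its length gives in this neighbourhood.

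Most PLXNA4 peaks were low, with a median of 44.5 fragments (range 21 to 196). Enrichment of at least 10-fold was reached by 8 of the 24, against 26.3% of all peaks. The highest by fold enrichment was in intron 25, 490.3 kb downstream of the TSS (chr7:132158023-132158780), with 166 fragments (95% Poisson interval 141.7 to 193.3), 24.6-fold enrichment and −log10 q of 129.4. The tallest, in intron 4 (chr7:132250233-132250985), had 196 fragments and 24.2-fold enrichment. Both stood in the 3′ part of the gene, after a stretch of 122.5 kb between neighbouring summits that held no peak. Intron 3, the longest at 191.1 kb, held 4 peaks, none above 40 fragments. The median gap between neighbouring summits was 14.6 kb in PLXNA4 and 4.59 kb in PLXNA2, against 9.23 kb in the whole list.

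The low local input separated the genes as well. At PLXNA4, 21 of 24 peaks had a local input within 1% of the value taken as the lowest possible, against 0 of 51 at PLXNA2 and 32.9% of all peaks. Enrichment of 24.6-fold at PLXNA4 therefore came from 166 fragments and that of 27.8-fold at PLXNA2 from 275. Fold enrichment and height order the peaks of these genes differently, and both are given for that reason.

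**Figure D4:**
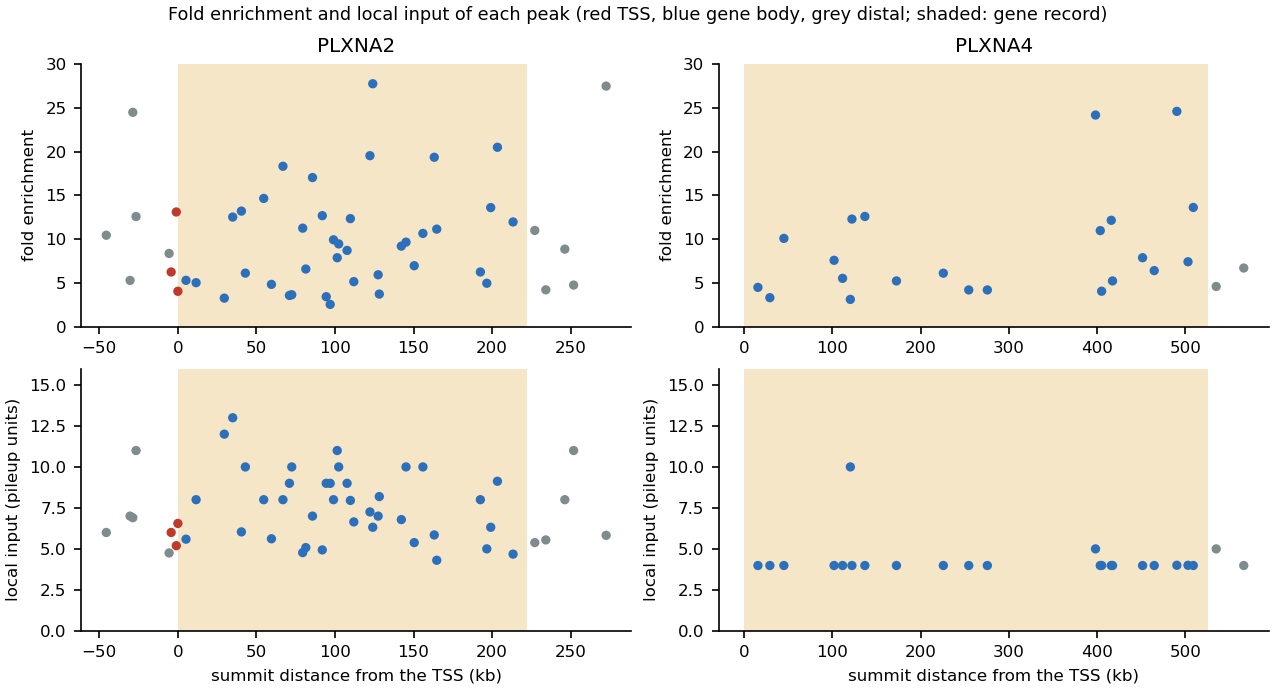
Fold enrichment (top) and local input in pileup units (bottom) of each OTX2 peak against the distance of its summit from the TSS in kb, for PLXNA2 (left) and PLXNA4 (right), with the gene record shaded and red, blue and grey points for TSS, gene-body and distal peaks. Local input at PLXNA2 runs from 4.31 to 13.0, while 21 of the 24 PLXNA4 points lie within 1% of 3.99, the most frequent value, taken as the lowest possible.

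The start of PLXNA4 depends on the annotation. The gene record begins 72.2 kb upstream of the canonical transcript, and the peak nearest to the record's 5′ end had its near edge 15.7 kb away, with 29 fragments. From the canonical start, whose promoter is printed above, the nearest peak was 26.6 kb upstream, with 67 fragments and 10.1-fold enrichment. Neither start had a peak in its TSS window. A short annotated transcript near the 3′ end (ENST00000496550) began within 1 kb of an intron 28 peak of 49 fragments.

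PLXNA1 (ENSG00000114554, chr3:126982693-127037389, plus strand, 54.7 kb), a partner of neuropilins in the response to class 3 semaphorins, had 6 peaks, where genes of similar length had a median of 8. There was none at the TSS and 1 in the gene body, in intron 3, with 40 fragments and 6.08-fold enrichment. The other 5 all lay downstream of the gene. Of these, 4 had 27 to 49 fragments, and the farthest, 94.9 kb from the TSS (chr3:127077129-127078108), had 297 fragments (95% Poisson interval 264.2 to 332.8), 13.7-fold enrichment and −log10 q of 164.3. This was the tallest of all plexin peaks, above 98.6% of the list, but the local input under it was 15.0, against a median of 4.00 at the PLXNA1 peaks. That peak overlapped no other protein-coding record, and whether it acts on PLXNA1 is not known from these data.

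PLXNA3 (ENSG00000130827, chrX:154458281-154477779, plus strand, 19.5 kb) had no peak in its window. The nearest peak was 59.1 kb upstream of the TSS, outside the window, with 43 fragments and 6.54-fold enrichment. At the density of chromosome X, a window of its length would hold 2.39 peaks. A count of 0 in a gene body of this length allows up to 17.1 peaks per 100 kb, taking 3 counts as the limit, so the gene is too short for a low density to be told from none.

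Class A as a whole had 81 peaks, 6.63 per 100 kb of window (95% Poisson interval 5.26 to 8.24), with a median of 67 fragments. This rested on PLXNA2. Gene-body density in class A was 7.50 per 100 kb (5.73 to 9.63), but 3.88 without PLXNA2 and 13.4 without PLXNA4, and the median height fell to 43.5 fragments without PLXNA2. Distal density was 4.47 per 100 kb of flank (2.61 to 7.16), and 2.46 without PLXNA2. The 4 class A genes ranged from 0 to 51 peaks, so the class is not described well by its mean.

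Class B, the receptors for class 4 semaphorins, had the lowest window density, with 9 peaks in 3 genes or 2.41 per 100 kb (95% Poisson interval 1.10 to 4.57), with a median of 40 fragments. None was in a gene body. In the 68.0 kb of class B gene body together, a count of 0 allows up to 4.41 peaks per 100 kb, which is above the genome median of 3.40, so a density at the genome median and none cannot be told apart at this length. That limit lies below the interval of class A (5.73 to 9.63) and within that of class C (3.95 to 13.3), but class A without PLXNA2, at 3.88, is below the limit.

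PLXNB1 (ENSG00000164050, chr3:48403854-48430086, minus strand, 26.2 kb), the receptor of SEMA4D, had 6 peaks, all upstream and distal. Genes of similar length had a median of 7. The highest, 12.04 kb upstream (chr3:48441736-48442436), had 217 fragments (95% Poisson interval 189.1 to 247.9), 24.3-fold enrichment and −log10 q of 163.6, and was the second tallest plexin peak outside PLXNA2. It lay in the record of TMA7 and in the TSS windows of TMA7, CCDC51 and ATRIP. The other 5 had 29 to 69 fragments, and each overlapped the record or TSS window of CCDC51, TMA7, ATRIP, TREX1 or SHISA5. No distal peak of PLXNB1 was thus free of a nearer gene, and the peak closest to its TSS, 5.97 kb away with 64 fragments, lay in CCDC51.

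PLXNB2 (ENSG00000196576, chr22:50274979-50307646, minus strand, 32.7 kb) had 3 peaks, all low, with 31 to 40 fragments, and 14.8% of 7184 genes of similar length had fewer. Its TSS peak had its summit 1529 bp downstream of the start, in intron 1 (chr22:50305942-50306341), with 39 fragments, 5.94-fold enrichment and −log10 q of 13.0. The distal peaks, with 31 and 40 fragments, lay in the TSS windows of DENND6B and PPP6R2. The highest of these had 6.10-fold enrichment. The density around PLXNB2, 2.32 peaks per 100 kb within 5 Mb, was close to that in its window, 2.26.

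PLXNB3 (ENSG00000198753, chrX:153764196-153779346, plus strand), at 15.2 kb the shortest plexin gene, had no peak in its window. The nearest one was 89.2 kb downstream of the TSS, with 26 fragments and 4.02-fold enrichment. At the density of chromosome X its window would hold 2.30 peaks, and a count of 0 in the gene body allows up to 22.8 peaks per 100 kb.

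All 8 distal peaks of class B overlapped the record or TSS window of another protein-coding gene. Their density, 2.81 per 100 kb of flank (95% Poisson interval 1.21 to 5.53), became 0 without such peaks and 1.05 without PLXNB1. Over all plexins, 12 of the 37 distal peaks overlapped another gene in this way, 8 of them in a TSS window, and the other 4 were at PLXNB1, PLXNC1 and PLXND1. Distal peaks at class A genes had no such overlap. Neither the share over all protein-coding genes nor the number of genes in each flank was computed. These counts therefore describe the loci and do not compare OTX2 binding between the classes.

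The only RefSeq promoter window used for PLXNB2 lies at a start within the gene. It is labelled second because the gene record begins upstream of it. The 5′ end of that record was not scanned for sites. The promoter is shown because it is the only one of 11 plexin promoter windows with an OTX2 site of 6 letters. The window is chr22:50301620-50301919, minus strand, with TAAT on either strand in capitals as above. TAATCT was found 113 bp before this start on the strand opposite to the gene (chr22:50301777-50301782), at the second run of capitals, and TAATCC was not found.
PLXNB2 second promoter: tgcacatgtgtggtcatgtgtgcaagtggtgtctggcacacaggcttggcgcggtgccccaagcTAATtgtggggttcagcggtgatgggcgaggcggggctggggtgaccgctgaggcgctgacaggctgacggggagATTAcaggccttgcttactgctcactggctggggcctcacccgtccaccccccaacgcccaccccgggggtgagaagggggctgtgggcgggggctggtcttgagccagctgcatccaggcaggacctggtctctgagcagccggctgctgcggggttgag

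No OTX2 peak overlapped this window. Over all 35116 promoter windows, 12.8% held TAATCC or TAATCT on either strand, 6.36% the former and 7.17% the latter. Windows with a peak held either motif in 13.3% and windows without one in 12.5%. TAAT, which lies within both motifs, was found in 5 of the 11 plexin windows and in 50.2% of all windows. Across the genome, TAATCC or TAATCT in a promoter window therefore hardly separated windows with a peak from those without. The share with TAAT was not split in this way.

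PLXNC1 (ENSG00000136040, chr12:94148577-94307675, plus strand, 159.1 kb), the receptor of SEMA7A, had 17 peaks, with 1 at the TSS, 12 in the gene body, 3 upstream and 1 downstream. Genes of similar length had a median of 13, and 64.1% of 3796 had fewer. The gene body held 7.64 peaks per 100 kb (95% Poisson interval 3.95 to 13.3), above the genome median. By counting error, this interval overlapped both that of PLXNA4 (2.63 to 6.36) and that of PLXNA2 (12.2 to 23.7). The window density of 6.56 was close to that of the 5 Mb around it, 6.96.

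The peak at the PLXNC1 start was the weakest of the gene. Its summit lay 654 bp upstream (chr12:94147721-94147983), with 22 fragments (95% Poisson interval 13.8 to 33.3), 2.86-fold enrichment and −log10 q of 2.95, and only 3.67% of all peaks were lower in height. The strong PLXNC1 peaks were far inside the gene. The tallest, with 188 fragments (162.1 to 216.9), 15.5-fold enrichment and −log10 q of 113.7, lay in intron 20 (chr12:94262112-94262960), 113.8 kb from the TSS. The highest by fold enrichment lay in intron 23 (chr12:94285929-94286499), with 160 fragments, 22.9-fold enrichment and −log10 q of 119.8. Intron 26 held another of this kind, with 128 fragments and 15.9-fold enrichment, and an intron 2 peak of 153 fragments had 9.46-fold enrichment over a local input of 11.

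The intron 20 peak lay over an internal start of PLXNC1, and the promoter windows of the gene are shown because they separate these starts. The window at the main start is chr12:94148327-94148626 and overlapped no peak. The window at the internal start is chr12:94262369-94262668 and lay wholly inside the peak, whose summit was 249 bp before that start. Both are on the plus strand, from RefSeq, with TAAT on either strand in capitals.
PLXNC1 main promoter: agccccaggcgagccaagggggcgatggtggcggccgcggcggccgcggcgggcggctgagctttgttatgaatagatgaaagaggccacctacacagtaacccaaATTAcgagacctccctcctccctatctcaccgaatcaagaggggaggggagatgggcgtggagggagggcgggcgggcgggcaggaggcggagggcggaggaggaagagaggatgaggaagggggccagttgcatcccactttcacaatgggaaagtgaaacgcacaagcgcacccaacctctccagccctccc
PLXNC1 internal promoter: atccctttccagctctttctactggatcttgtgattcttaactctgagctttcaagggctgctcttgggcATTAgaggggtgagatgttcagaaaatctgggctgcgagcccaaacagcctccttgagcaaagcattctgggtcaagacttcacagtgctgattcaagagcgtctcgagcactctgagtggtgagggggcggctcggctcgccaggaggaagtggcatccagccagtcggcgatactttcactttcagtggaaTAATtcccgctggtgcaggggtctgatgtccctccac

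The internal window had a GC content of 53.7%, the lowest of the 11 plexin windows, and held TAAT on either strand 2 times, and the main window had 64.0% and held it 1 time. GENCODE gives a transcript that starts nearby (ENST00000545312), 151 bp downstream of the summit. Among the 11 plexin windows, a peak covered 2, that of PLXNA2 and the internal one of PLXNC1, against 29.99% of all windows. The 5′ end of the PLXNB2 record is in none of the 11.

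The highest distal peak of PLXNC1 by fold enrichment was 208.6 kb downstream of the TSS, with 50 fragments and 7.57-fold enrichment, in the record of CEP83. The 3 upstream peaks, at 9.37, 14.1 and 47.0 kb, had 30, 33 and 40 fragments. All 4 distal peaks were below the median height of the whole list, 53 fragments.

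PLXND1 (ENSG00000004399, chr3:129555214-129606676, minus strand, 51.5 kb), the receptor of SEMA3E, had 9 peaks, of which 8 were distal, and genes of similar length had a median of 8. No peak was at the TSS. The gene-body peak was in intron 25 (chr3:129563696-129564553), with 64 fragments, 9.64-fold enrichment and −log10 q of 31.5. Upstream, 6 peaks lay between 19.3 and 48.6 kb from the TSS. The highest of them by fold enrichment, at 27.2 kb (chr3:129633612-129634146), had 82 fragments, 12.3-fold enrichment and −log10 q of 46.2, and the tallest, at 35.1 kb (chr3:129641204-129642093), had 137 fragments and 10.2-fold enrichment over a local input of 9.

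Of the 8 distal PLXND1 peaks, 3 overlapped other genes, namely TMCC1 upstream and H1-8 and IFT122 downstream. The distal density was 8.42 per 100 kb of flank (95% Poisson interval 3.64 to 16.6), against a median of 4.21 over all protein-coding genes. It was 4.44 with flanks of 25 kb, and 5.26 without peaks at other genes or with at least 5-fold enrichment. Its interval overlapped that of class A (2.61 to 7.16), of class B (1.21 to 5.53) and of class C (1.15 to 10.8). The distal peaks of PLXNB1 (6) and PLXNB2 (2) were all upstream, as were 6 of the 8 at PLXND1, while those of PLXNA1 (5) and PLXNA4 (2) were all downstream. PLXNA2 had 5 on each side, and PLXNC1 had 3 upstream and 1 downstream, so side did not follow class.

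Across the classes, gene-body density was 7.50 peaks per 100 kb in A, 0 in B, 7.64 in C and 2.02 in D, where D rests on 1 peak and has an interval from 0.051 to 11.3. The median height was 67 fragments in A, 40 in B, 47 in C and 50 in D. The order-statistic 95% interval was 53 to 90 in A, 31 to 69 in B, 37 to 79 in C and 29 to 82 in D. These intervals treat the peaks of a class as independent draws, though 51 of the 81 in A were at PLXNA2 and C and D hold 1 gene each. They therefore describe the peaks and are no comparison of the classes. The intervals overlap between all classes, and without PLXNA2 the median of A was 43.5 fragments. Enrichment of at least 10-fold was reached by 31 of 81 peaks in A (38.3%), 1 of 9 in B, 4 of 17 in C and 2 of 9 in D. The share of all peaks was 26.3%, and 22 of the 31 in A were at PLXNA2.

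Gene length moved with the number of peaks. The 3 longest plexin genes, PLXNA4, PLXNA2 and PLXNC1, had the 3 highest counts, and the 2 shortest had none. Set beside protein-coding genes of similar length, PLXNA2 was the only plexin with more peaks than 90% of them, and PLXNA3, PLXNB2 and PLXNB3 were the lowest. Relative to the density of the surrounding 5 Mb, the windows with peaks stood between 0.82 (PLXNA1) and 1.25 (PLXND1) times, with PLXNA2 the exception at 2.01 times. The plot against gene length shows these counts.

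**Figure D5:**
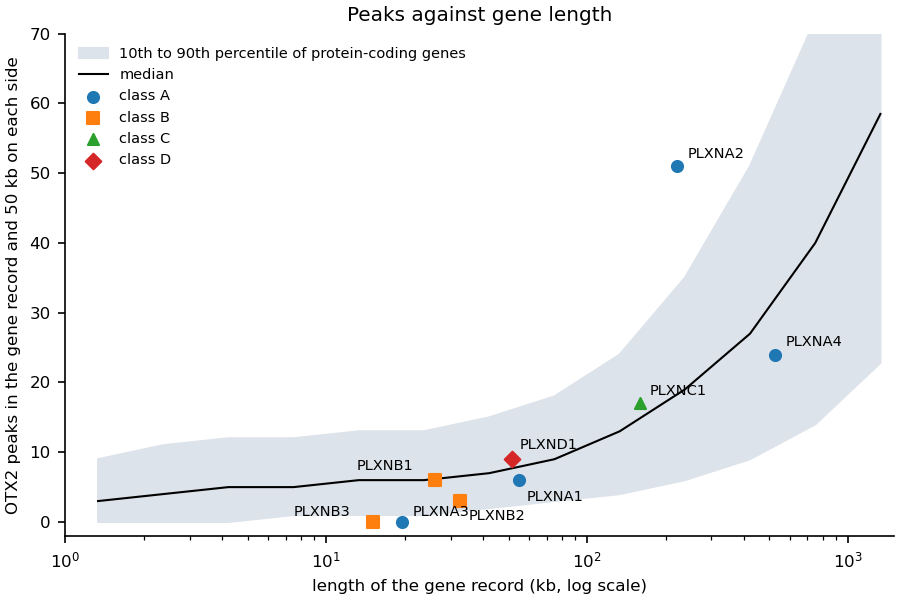
The number of OTX2 peaks in the window on the y axis against the length of the gene record in kb on a log x axis. The line and the band are the median and the 10th to 90th percentile of protein-coding genes by length (the band continues above the axis for the longest genes); PLXNA2, with 51 peaks at 222.1 kb, lies above the band and the other plexins with peaks lie inside it.

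The count of plexins with a TSS peak depended on which starts were counted. Counted at any annotated transcript start, 5 of the 9 genes had a peak in the TSS window, with PLXNA4 and PLXND1 added, against 66.6% of all protein-coding genes counted in the same way. Within 1 kb of the main start, 2 of the 9 had a peak, PLXNA2 and PLXNC1, against 46.9%. The PLXNC1 peak was lost when −log10 q or fold enrichment had to reach 5, which left 2 genes. For the main window, any start and 1 kb, the count of plexins was below the share of all genes, at numbers too small to give more than the count.

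The partners of the plexins were counted in the same TSS window, from a list of 48 ligands, co-receptors and effectors. A TSS peak was present at 33 of them (68.8%), against 57.2% of all protein-coding genes. The Wilson 95% interval of that share was 54.7 to 80.1. It treats the genes as a random draw, which this chosen list is not, so the shares were not tested against each other. Semaphorin ligands had one at 5 of 7 secreted class 3 genes, 4 of 6 class 4 genes and 6 of 7 genes of classes 5 to 7. Co-receptors had one at 3 of 5, small GTPases at 6 of 7, MICAL enzymes at 1 of 3, and kinases and CRMP proteins downstream of plexins at 5 of 9.

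Among ligands, the highest TSS peaks were those of the transmembrane semaphorins SEMA6C, with 211 fragments and 26.6-fold enrichment, and SEMA6D, with 199 fragments and 18.9. SEMA6D also had 105 peaks in its window, more than PLXNA2. In the other ligand groups the leading TSS peaks were lower, at SEMA3A (51 fragments, fold enrichment 7.72) and SEMA3D (28, 4.33), and at SEMA4C (54, 8.16) and SEMA4B (30, 3.90). SEMA4D, the ligand of PLXNB1, and SEMA3E, that of PLXND1, had no TSS peak. SEMA6A, the ligand of PLXNA2 in granule cells, had 3, the highest with 39 fragments and 5.95-fold enrichment, and SEMA7A, the ligand of PLXNC1, had 2, the highest with 33 fragments and 5.07.

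Of the co-receptors, NRP1, which joins class A plexins, had a TSS peak of 92 fragments and 13.7-fold enrichment, and the receptor kinase ERBB2, a partner of PLXNB1, one of 144 fragments and 11.9. NRP2 had one of 64 fragments and 9.61, and MET and L1CAM had none. MICAL1, a plexin-bound enzyme that oxidises actin, had 130 fragments and 13.8, while MICAL2 and MICAL3 had no TSS peak. The kinases FYN and GSK3B had 98 fragments and 12.9, and 75 fragments and 7.93. The highest TSS peak of any plexin, 109 fragments and 13.1 at PLXNA2, lay within the range of these partners.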

How the data were processed

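OTX2-bound DNA was measured by ChIP-seq in 1 library of D283 tumorspheres, with 1 input library. The authors aligned reads with Bowtie2 2.2.4 to GRCh38, masked blacklisted regions and used MACS2 2.1.0.20140616 for narrow peaks, under a q-value cutoff and with 1 fragment kept per position. The deposited pileup gives the coverage by fragments over each summit, a signal that the authors' caller scaled to the depth of the input. Fold enrichment, as deposited, is the ratio of pileup over local input after a pseudocount is added to both. Of the deposited significance values, only the −log10 of the q-value was used. Before duplicate removal there were 84980793 ChIP and 32292980 input fragments, of which 27.9% and 30.3% were duplicates. The input was the shallower library, and the precision of the fold values was not measured.

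Here, heights in fragments were recovered by dividing pileup by 0.735, the value of 1 fragment, and each came within 0.0068 of a whole number. The local input was recovered from pileup and fold enrichment. Gene records were those of GENCODE release 44, whose file is placed on GRCh37 and records the GRCh38 position of each exon. Those positions were used, and no coordinate was converted. Promoter sequences came from RefSeq. A GRCh38 genome sequence was not used here, so peak sequences are not shown. A peak counted with at least 1 bp of overlap. Densities have exact Poisson intervals, shares Wilson intervals, both at 95%, and a count of 0 was given an upper limit of 3 counts. No test was run, since each condition has 1 library and genes are not replicates. Counting was tested on simulated data. All members are described, each with its highest peak by fold enrichment in each position, and of the partner list the 2 genes of each group with the highest fold enrichment at a TSS peak, plus the ligands and co-receptors of named plexins and all of any group of 3 or fewer. The ligands and co-receptors were named after their values were seen. Some genes of the partner list that this rule names, from the small GTPases and 1 further group, count in its total but are not reported here. The members and lists were chosen with earlier results of these data known. Alternatives were a stricter threshold, another overlap, TSS window, start or flank, and leaving out distal peaks at other genes or 1 member. A further one scaled gene-body density to the density of the chromosome. RefSeq records and a limit on local input were added after the data were seen. Work was done in Python 3.11.15, with scipy 1.17.1 for intervals, pandas 2.3.3 and numpy 2.4.6 for tables and matplotlib 3.10.9 for plots.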

Additional observations from a re-analysis of the deposited data

How the results depend on the processing

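Of 123 values recomputed under the alternatives, 108 stayed within 1.5 times the value given or within its spread and 15 moved. Changes in the order of the classes were not counted, but some occurred. Scaled to the density of the chromosome, gene-body density was 8.51 in A and 6.19 in C, against 7.50 and 7.64 unscaled. With flanks of 25 kb, distal density was 5 in A and 4.44 in D, against 4.47 and 8.42. A fold enrichment of at least 5 left 3 TSS and 24 distal peaks and raised the median height of class A to 91 fragments. A TSS window of 1 kb on either side left 3 TSS peaks. At any transcript start there were 5 genes with a TSS peak and 11 TSS peaks, and the gene-body density of class D became 0. Flanks of 25 kb and 100 kb gave 18 and 88 distal peaks. Without distal peaks at other genes the distal density of class B was 0. Without PLXNA2, class A had 3.88 gene-body and 2.46 distal peaks per 100 kb and a median of 43.5 fragments, without PLXNA4 it had 13.4 gene-body peaks per 100 kb, and without PLXNB1 class B had 1.05 distal peaks per 100 kb. No paired analysis was possible because the ChIP and the input had 1 library each. Depth limits the short genes, where no peak is not the same as no binding, and 32.9% of all peaks lie within 1% of the value taken as the lowest local input.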
